A study of Mus musculus with 6 samples.

Results

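The T cell receptor locus genes are the variable, joining, diversity and constant segments of the alpha, beta, gamma and delta receptor loci. They were taken as the genes whose symbol began with Trav, Traj, Trac, Trbv, Trbd, Trbj, Trbc, Trdv, Trdc, Trgv, Trgc or Tcrg, which carried an immunoglobulin or T cell receptor gene type, and whose estimated counts summed to at least 10 over all libraries. This gave 132 members of 38483 genes in the table: 94 alpha variable, 22 beta variable, 5 delta variable and 5 gamma variable segments, and the constant genes Trac, Trbc1, Trbc2, Tcrg-C1, Tcrg-C2 and Tcrg-C4. The count total chose the members, so their presence above that minimum is a description. The comparison of genotypes was not used in the choice.

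The cells were CD4+CD62L+ T cells selected from mouse spleen with a magnetic kit, on the B10.RIII background. The knockout group (IL-17A-/-) and the wild-type group (IL-17A+/+) had 3 libraries each, numbered 1 to 3 and described as biological replicates. All 6 cultures were kept for 3 days in Th17-polarizing medium, with IL-6 at 10 ng/ml, IL-23 at 10 ng/ml, TGF-β at 1 ng/ml, and antibodies to IFN-γ and to IL-4 at 10 µg/ml each. The labels name no receptor transgene and no allele other than that of Il17a, and they give neither the age nor the sex of the animals. RNA was sequenced as stranded mRNA libraries.

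A T cell receptor is a pair of chains, alpha with beta in conventional CD4 and CD8 T cells and gamma with delta in a smaller lineage. Each chain gene is assembled in the thymus by joining a variable to a joining segment, with a diversity segment between them in beta and delta, and the joined exon is spliced to a constant gene. The RNA of a receptor chain therefore holds the variable segment that was joined. Counts of a segment do not tell its joined from its unjoined transcripts. A population that recognises many antigens uses many segments. In mouse, some gamma-delta T cells carry an almost fixed receptor and make IL-17. One such receptor pairs the chain of Tcrg-V6 with the chain of Trdv4.

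The last 300 coding bases of 5 variable segments are shown because the results turn on them: Trav16 and Trbv5 led the alpha and beta loci, Trav16n is a near copy of Trav16, and Tcrg-V6 and Trdv4 differed most between genotypes among the gamma and delta segments. They are the reference transcripts of GENCODE M21 on GRCm38, 2 exons joined, 5′ to 3′, running to base 350 in Trav16 and Trav16n, 341 in Trbv5, 364 in Tcrg-V6 and 345 in Trdv4. Trav16 lies at chr14:53743104-53743705, Trav16n at chr14:53351028-53351621, Trbv5 at chr6:41062332-41062803, Tcrg-V6 at chr13:19190356-19190929 and Trdv4 at chr14:54074905-54075515, all on the + strand. Capitals mark the codon of the conserved cysteine near the end of the segment, found as the last in-frame TAY-any-TGY triplet pattern. In Trav16n they mark the bases that differ from Trav16. The coding parts of these copies differ at 5 of 350 bases, 4 of them in the stretch shown.
Trav16: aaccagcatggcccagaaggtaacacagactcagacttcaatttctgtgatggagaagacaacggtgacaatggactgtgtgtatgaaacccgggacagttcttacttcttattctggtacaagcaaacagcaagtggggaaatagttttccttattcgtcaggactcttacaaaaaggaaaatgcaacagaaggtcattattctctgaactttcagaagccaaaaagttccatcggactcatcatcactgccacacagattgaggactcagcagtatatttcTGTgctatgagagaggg
Trav16n: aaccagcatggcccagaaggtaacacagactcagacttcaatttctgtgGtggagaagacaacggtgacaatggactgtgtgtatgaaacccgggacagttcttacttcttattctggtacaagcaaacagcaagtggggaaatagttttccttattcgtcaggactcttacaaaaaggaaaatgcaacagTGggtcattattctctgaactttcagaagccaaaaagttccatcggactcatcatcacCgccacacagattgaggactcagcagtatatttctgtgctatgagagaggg
Trbv5: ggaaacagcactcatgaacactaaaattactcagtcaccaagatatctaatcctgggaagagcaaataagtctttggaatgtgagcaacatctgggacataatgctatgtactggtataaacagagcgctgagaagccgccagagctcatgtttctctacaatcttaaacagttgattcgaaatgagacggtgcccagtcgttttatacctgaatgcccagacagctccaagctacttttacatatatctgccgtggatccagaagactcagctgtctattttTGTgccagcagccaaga
Tcrg-V6: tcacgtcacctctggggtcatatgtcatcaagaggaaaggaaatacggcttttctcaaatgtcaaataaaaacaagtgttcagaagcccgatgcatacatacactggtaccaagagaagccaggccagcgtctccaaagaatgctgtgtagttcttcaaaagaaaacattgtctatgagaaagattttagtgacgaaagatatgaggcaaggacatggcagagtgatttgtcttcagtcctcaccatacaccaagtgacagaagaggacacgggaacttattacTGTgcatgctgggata
Trdv4: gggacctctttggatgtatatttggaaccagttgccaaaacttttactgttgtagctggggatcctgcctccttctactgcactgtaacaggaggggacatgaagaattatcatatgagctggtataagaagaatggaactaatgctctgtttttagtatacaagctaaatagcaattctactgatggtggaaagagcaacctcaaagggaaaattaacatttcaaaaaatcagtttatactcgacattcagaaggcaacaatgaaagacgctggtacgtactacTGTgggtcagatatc

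The beta constant genes Trbc1 (chr6:41538218-41539881) and Trbc2 (chr6:41546730-41548352), also on the + strand, are shown because their counts rest on few bases that tell them apart. Their coding parts differ at 23 of 518 bases, and bases 381 to 500 hold 18 of these, in capitals.
Trbc1: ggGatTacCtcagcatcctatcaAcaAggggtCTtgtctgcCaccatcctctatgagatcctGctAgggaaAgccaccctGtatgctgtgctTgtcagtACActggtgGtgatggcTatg
Trbc2: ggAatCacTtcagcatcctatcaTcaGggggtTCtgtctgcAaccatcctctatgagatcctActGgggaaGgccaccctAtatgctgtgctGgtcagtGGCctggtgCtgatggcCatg

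The libraries held 47335736 to 49743762 estimated counts, of which the members took 0.135% to 0.233%. Il17a, the deleted cytokine gene, was at 1.11, 0 and 0.0288 CPM (estimated counts scaled to a common library size) in knockouts 1, 2 and 3, against 161, 211 and 108 CPM in wild-types 1, 2 and 3. The genotype labels of all 6 libraries fit these levels. In knockout 2 the count of 0 leaves room for 0.0614 CPM or less. The number 1 libraries stood apart in Cd8a, a CD8 coreceptor chain, at 425 CPM in knockout 1, with 257 CPM in its wild-type counterpart, against 62.3 and 66.1 CPM in the other knockouts and 48.3 and 33.7 CPM in the other wild-types. The summed level of 10 B cell markers was 2140, 1191 and 575 CPM in the knockouts, against 1051, 582 and 371 CPM in the wild-types. Sex-linked transcripts also differed, with Ddx3y at 44.5, 38 and 0 CPM in knockouts 1, 2 and 3 and at most 0.458 CPM in the wild-types. Xist was at 2.58, 0 and 627 CPM in the knockouts, against 567, 622 and 664 CPM in wild-types 1, 2 and 3. By these transcripts knockouts 1 and 2 were male, and knockout 3 and all wild-types were female. Sex thus differed between the genotypes in numbers 1 and 2, where it cannot be told apart from genotype. The part of these library differences in the results below was not tested.

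By name and gene type 217 genes qualified, and 85 of them stayed below the minimum, 80 at a count of 0. All 59 alpha joining, 14 beta joining and 2 beta diversity segments were at 0, including Traj18 and Traj33. These segments are 12 to 72 nt long in the table, so their level could not be read here. The members nearest the minimum were Tcrg-V7 at a total of 10.05 and Trdv2-1 at 12.57, and the genes just below it were Trav6d-5 at 9.51 and Trav6-1 at 8.25. A further 8 genes with such a symbol, Tcrg-C3 among them, carried no receptor gene type and were not taken. Trdc, the delta constant gene, was not analysed here.

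The alpha and beta constant genes had the highest levels per length, and none passed the test between the genotypes. Trac, the alpha constant gene, was at 474, 412 and 333 CPM in knockouts 1, 2 and 3, against 470, 378 and 302 CPM in wild-types 1, 2 and 3. The groups overlapped, and the order of the libraries, number 1 highest and number 3 lowest, was the same in both. A log2 change of 0.08 (SE 0.21) was fitted for Trac, with an adjusted p of 0.9999 in edgeR's quasi-likelihood test with Benjamini-Hochberg adjustment over all genes. In bulk RNA, fewer T cells and less receptor RNA per cell cannot be told apart.

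Trbc1, the first beta constant gene, was at 541, 483 and 369 CPM in the knockouts, against 594, 526 and 330 CPM in the wild-types. Its second copy Trbc2 was at 685, 576 and 498 CPM in the knockouts, against 634, 503 and 359 CPM in the wild-types. Both sets overlapped between genotypes. The log2 changes were -0.06 (SE 0.25) for Trbc1 and 0.23 (SE 0.24) for Trbc2, each with an adjusted p of 0.9999 in edgeR. Per length, averaged over the 6 libraries, Trac was at 956, Trbc1 at 925 and Trbc2 at 1041 CPM per kb.

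The share of Trbc2 among the beta constant transcripts did not overlap between the genotypes. Trbc2 took 55.9%, 54.4% and 57.4% of the Trbc counts in the knockouts, against 51.6%, 48.9% and 52.1% in the wild-types. All 3 knockout shares lay above all 3 wild-type shares, and the means were 55.9 ± 1.52% and 50.9 ± 1.75% (SD, n = 3 each). Of all genes tested, 3.02% had knockout levels wholly above the wild-type levels, a rate for gene levels and not for shares. The difference in share was 5.04 percentage points. A two-sided exact permutation test gave p = 0.1, the smallest p that 3 against 3 libraries allow. Any set without overlap gives that p, so it adds nothing to the ranges. A read that covers none of the differing bases shown above could have been assigned to either gene.

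**Figure D1:**
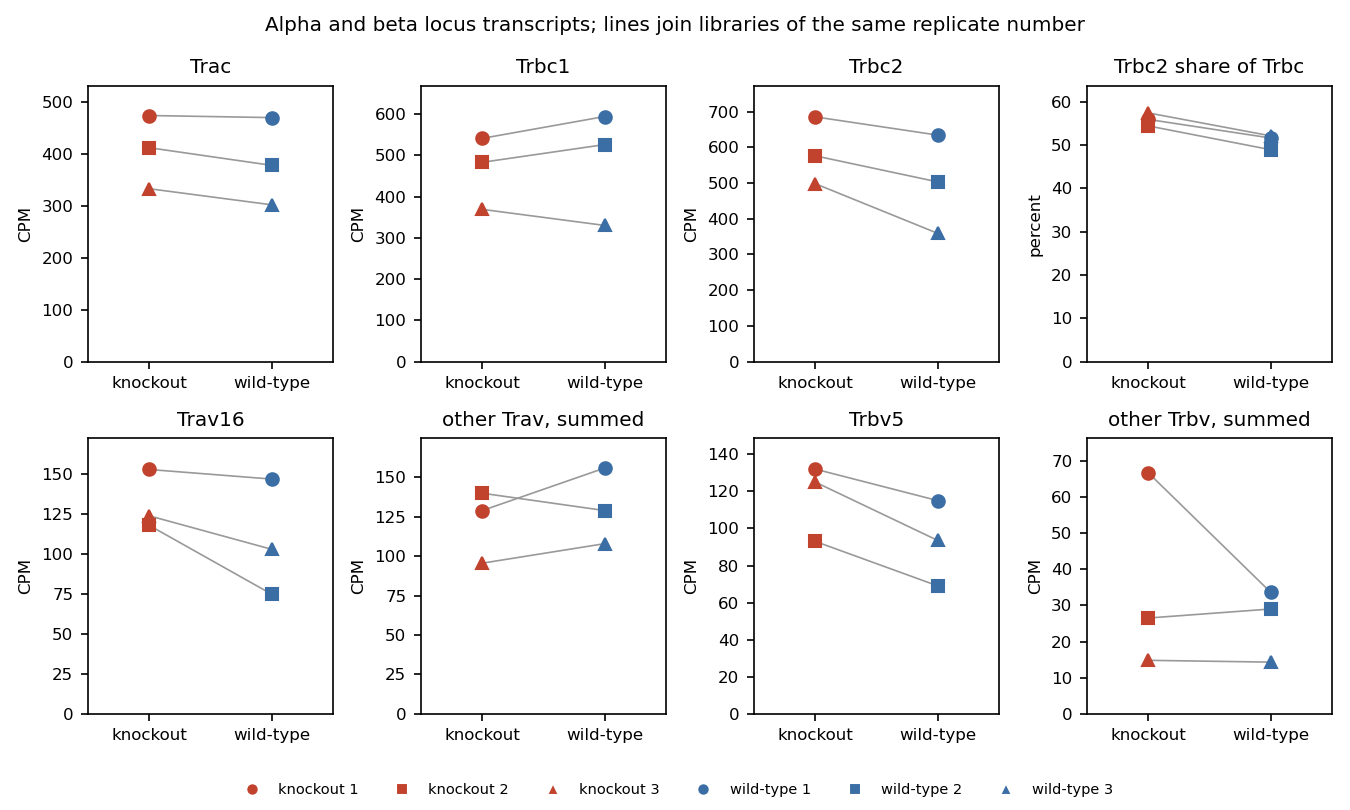
Levels of the alpha and beta constant genes, of Trav16 and Trbv5, and of the other variable segments summed, in CPM, and the Trbc2 share in percent, with 1 point per library and knockout left of wild-type. Lines join libraries of the same number. Trac and Trbc levels follow the library number more than the genotype, and the other Trbv segments sum to 66.7 CPM in knockout 1, above every other library.

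A single segment, Trbv5, dominated the beta variable transcripts of both genotypes. It was at 132, 93 and 125 CPM in knockouts 1, 2 and 3, against 115, 69 and 93.5 CPM in wild-types 1, 2 and 3. The groups overlapped, at 117 ± 21 and 92.6 ± 23 CPM (SD, n = 3 each), although the knockout library was the higher of its number each time. For Trbv5 the log2 change was 0.34 (SE 0.23), with an adjusted p of 0.9999 in edgeR and from 0.107 to 1 over all alternatives.

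Trbv5 made up 66.5%, 77.9% and 89.4% of all beta variable counts in the knockouts, against 77.4%, 70.4% and 86.7% in the wild-types. The means of 77.9 ± 11.5% and 78.2 ± 8.19% differed by less than the spread within either genotype. Divided by length, the shares ran from 66.3% to 89.3% in the knockouts and from 70.3% to 86.5% in the wild-types. No other beta segment took more than 7.04% in any library. These shares describe the counted segments only. Summed beta variable CPM were 9.53% to 16.2% of summed Trbc CPM, against 54% to 69.8% for Trav over Trac. Averaged over the libraries, Trbv5 stood at 307 CPM per kb and the next segment, Trbv13-2, at 19.5 CPM per kb.

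The effective number of segments is the exponential of the Shannon entropy of their shares and equals the number of segments if all were used equally. It was 4.53, 2.96 and 1.83 for the beta locus in the knockouts, against 3, 3.87 and 2.06 in the wild-types. Without Trbv5 it was 13.5, 12.4 and 12.4 in the knockouts, against 12.2, 12.4 and 12.3 in the wild-types. With Trbv5 set aside, the remaining beta segments gave similar numbers in all 6 libraries.

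Behind Trbv5, the highest beta segments by CPM were Trbv13-2, Trbv31, Trbv19 and Trbv29. Trbv13-2 was at 14, 5.32 and 3.32 CPM in the knockouts, against 7.05, 3.7 and 3.96 CPM in the wild-types. Trbv31, the only beta segment that lies beyond the constant genes and on the opposite strand, was at 5.58, 4.64 and 2.12 CPM in the knockouts, against 4.29, 5.29 and 1.24 CPM in the wild-types. In both genes the groups overlapped. Trbv19 was at 7.25, 2.45 and 1.7 CPM in the knockouts, against 5.01, 4.94 and 1.39 CPM in the wild-types. Trbv29 was at 6.01, 2.63 and 0.685 CPM in the knockouts, against 3.63, 0.848 and 0.513 CPM in the wild-types. Trbv19 and Trbv29 were each lowest in the number 3 library of both genotypes.

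**Figure D2:**
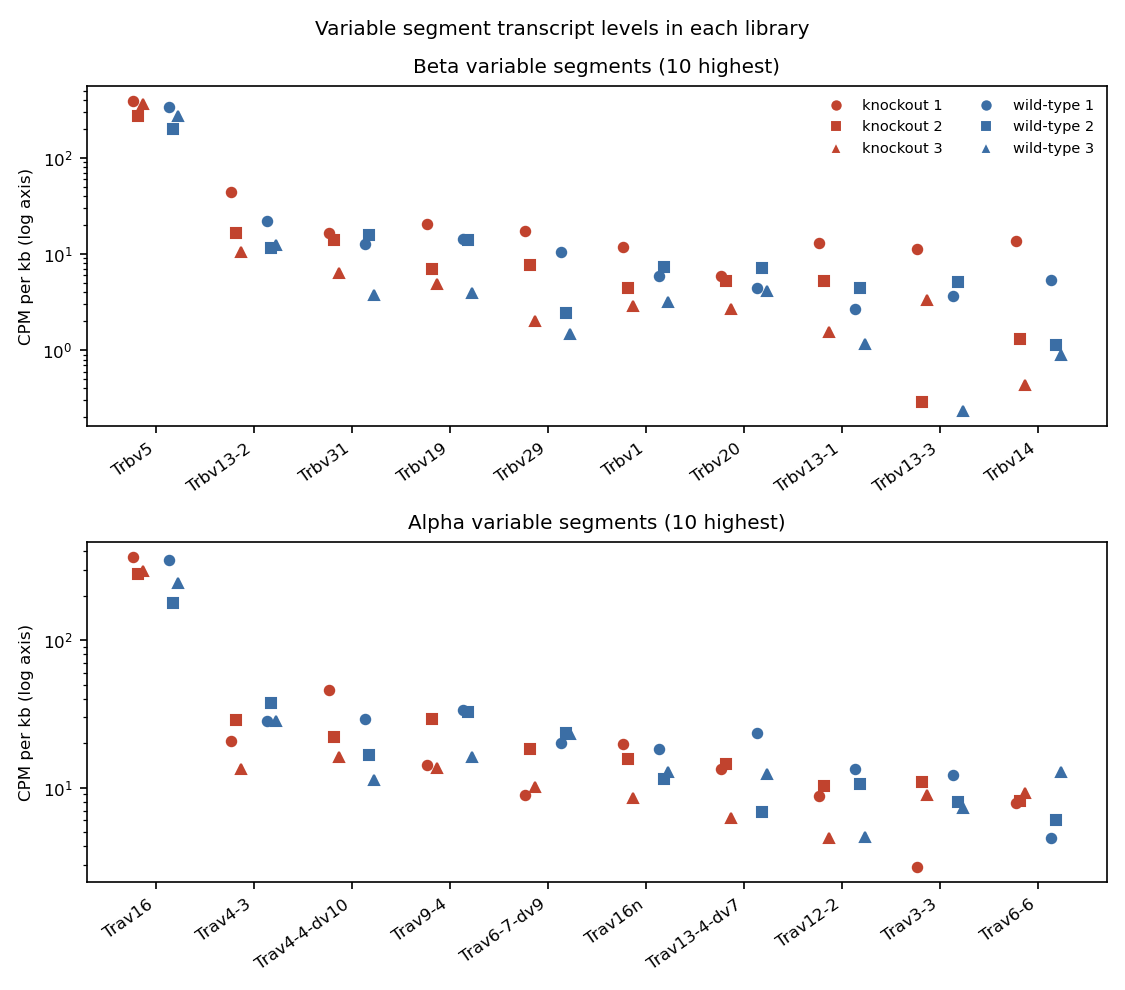
Levels of the 10 highest beta and the 10 highest alpha variable segments in CPM per kb on a log axis, 1 point per library, with knockout points left of wild-type points for each segment. Trbv5 and Trav16 stand apart from every other segment of their locus in all 6 libraries, at mean levels of 307 and 285 CPM per kb.

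Knockout 1 held the highest level of 17 of the 22 beta members. Summed without Trbv5, the beta segments reached 66.7, 26.5 and 14.8 CPM in the knockouts, against 33.6, 29 and 14.3 CPM in the wild-types. The log2 ratio of knockout to wild-type within a number was 0.99 for number 1, -0.13 for number 2 and 0.05 for number 3. The excess was thus present for number 1 and absent for the other numbers. Summed, the 6 CD8 T cell markers were also highest in knockout 1, at 1024, 188 and 185 CPM in the knockouts, against 615, 151 and 109 CPM in the wild-types. Their sum was higher in the knockout of every number, at log2 ratios of 0.74, 0.32 and 0.76 for numbers 1, 2 and 3. Among these markers, Cd8a, Cd8b1, Klrc1 and Klrk1 were each higher in the knockout of every number. Eomes was lower in the knockout for numbers 2 and 3, at log2 ratios of -0.43 and -0.06. Gzmk was lower for number 1, at -0.59, and peaked in knockout 2. The part of CD8 T cells in the beta segment levels was not tested. Of 19 beta members tested, 17 had a log2 change above 0 and the median was 0.62, against 52.4% of all genes tested and a median of 0.01. None of them passed the test. Without knockout 1, in a fit that kept wild-type 1, 5 of the 19 lay above 0 and 14 below, with a median of -0.19. Without both number 1 libraries, 9 lay above and 10 below in edgeR, with a median of -0.03. DESeq2 paired by library number gave 10 above and 9 below without number 1, with a median of 0.13.

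Some segments with at least 100 counts drew most of their signal from a single library. Trbv14, Trbv3 and Trbv16 had 59.9%, 55.7% and 54.3% of their summed CPM in knockout 1. Trbv14, for example, was at 4.65, 0.447 and 0.148 CPM in the knockouts, against 1.83, 0.382 and 0.306 CPM in the wild-types. Both number 1 libraries were the high ones. In the alpha locus, Trav16d-dv11, a copy of Trav16, held 154 counts in wild-type 1 and at most 2 in each of the other libraries, so that 97.9% of its signal came from that library. Trav4-2 had 61.5% of its signal in wild-type 1.

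The alpha locus was also led by a single segment, Trav16. It was at 153, 118 and 124 CPM in knockouts 1, 2 and 3, against 147, 74.9 and 103 CPM in wild-types 1, 2 and 3. The groups overlapped, at 132 ± 18.6 and 108 ± 36.2 CPM (SD, n = 3 each). For Trav16 the log2 change was 0.29 (SE 0.26), with an adjusted p of 0.9999 in edgeR and from 0.286 to 1 over all alternatives.

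Trav16 made up 54.3%, 45.8% and 56.5% of the alpha variable counts in the knockouts, against 48.5%, 36.7% and 48.8% in the wild-types. Its share was higher in the knockout library of every number, and the groups overlapped. Divided by length, it ran from 42.1% to 53% in the knockouts and from 33.5% to 45.5% in the wild-types. No other alpha member took more than 6.26% in any library. The effective number of alpha segments was 11.5, 16.1 and 10.9 in the knockouts, against 14.2, 20.8 and 13.8 in the wild-types. Without Trav16 it was 46.6, 47.1 and 50.7 in the knockouts, against 44.8, 42.6 and 43.7 in the wild-types, and these groups did not overlap. The alpha numbers count near copies, described below, as separate segments, so they are not numbers of separately measured segments.

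The alpha locus of this mouse genome holds repeated blocks, whose copies carry the letter d or n in their names. The 94 alpha members fell into 46 groups of copies, of which 30 held several members. In 11 pairs of copies both genes had identical values in all 6 libraries, so they are not separate measurements. Trav16n, the near copy of Trav16 shown above, was at 6.97, 5.51 and 3 CPM in the knockouts, against 6.46, 4.06 and 4.5 CPM in the wild-types. The split of reads between such copies is uncertain. Summed over its 3 copies, the Trav16 group was at 160, 124 and 127 CPM in the knockouts, against 156, 79 and 107 CPM in the wild-types.

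After Trav16, the highest alpha members by CPM were Trav9-4, Trav4-3, Trav4-4-dv10 and Trav6-7-dv9. Trav9-4 was at 5.65, 11.6 and 5.34 CPM in the knockouts, against 13.3, 12.8 and 6.35 CPM in the wild-types. Trav4-3 was at 6.85, 9.47 and 4.41 CPM in the knockouts, against 9.39, 12.4 and 9.43 CPM in the wild-types. Both were lower in the knockout library of every number, but the groups overlapped. For Trav4-3 the log2 change was -0.59 (SE 0.32), with an adjusted p of 0.9999 in edgeR. Trav4-4-dv10 was at 16.6, 7.91 and 5.8 CPM in the knockouts, against 10.5, 6.02 and 4.07 CPM in the wild-types, higher in the knockout library of every number and with overlapping groups. The suffix dv marks segments that can also join the delta locus, which lies inside the alpha locus.

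Trav6-7-dv9 was the tested member whose knockout levels lay wholly below the wild-type levels. It was at 3.34, 6.91 and 3.84 CPM in knockouts 1, 2 and 3, against 7.59, 8.91 and 8.66 CPM in wild-types 1, 2 and 3. Its log2 change was -0.83 (SE 0.33) in edgeR, at an unadjusted p of 0.0384. The adjusted p was 0.9999, and 0.0551 to 1 over all alternatives. It passed none of them. Of all genes tested, 3.11% had knockout levels wholly below the wild-type levels, against 1 of 106 members. Summed with its copies, the log2 change was -0.51 (SE 0.26). Knockout levels lay wholly above the wild-type levels in 3 of 106 members, Tcrg-V6, Trav14d-3-dv8 and Trav10n. This is 2.83% of the members tested, against 3.02% of all genes. Trav6-5, Trav14d-2, Trav14n-2 and Trbv30 were also among the members of lowest unadjusted p, and each overlapped between genotypes. Trav6-5 was at 1.62, 1.14 and 2.33 CPM in the knockouts, against 0.391, 1.16 and 0.56 CPM in the wild-types, a log2 change of 1.26 (SE 0.56, adjusted p of 0.9999 in edgeR). Trav14d-2 and Trav14n-2, a pair of copies with identical values, were at 0.7, 0.354 and 0.438 CPM in the knockouts, against 1.72, 0.523 and 0.555 CPM in the wild-types, with wild-type 1 the highest. In the beta locus, Trbv30 was at 0.187, 0.249 and 0.0479 CPM in the knockouts, against 0.444, 0.437 and 0.147 CPM in the wild-types. Of the 94 alpha members, 57 had a mean level below 1 CPM.

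Across the loci, no member was called in the main comparison. Of the 132 members, 106 passed edgeR's filter on low counts and 26 did not. None of the 106 reached an adjusted p of 0.05 in edgeR, where the share called among all 15121 genes was 0% in each direction. At an unadjusted p under 0.05 the test gave 4 members, Tcrg-V6, Trdv4, Trav10n and Trav6-7-dv9, which is 3.77% of the members tested, against 1.67% of all genes. The members include copies that share reads, and with alpha copies summed 2 of 71 copy groups and other members were below that p. Limma-voom called 0 members, DESeq2 called 1 as higher, where it called 0.0529% of all genes higher and 0.0331% lower, and DESeq2 with the replicate number as a block called 2 as higher. With that block DESeq2 called 1.02% of all genes higher and 1.5% lower. The median log2 change of the members was 0.09. Among alpha members 36 changes lay above and 37 below 0.

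The member called by DESeq2 without the block was Trav10n, a copy of Trav10. It had 30.5, 18.7 and 27.6 counts in the knockouts and 0 in each wild-type library. A count of 0 allows up to 3 counts per library by counting error alone, which puts the knockout mean at least 7.58-fold higher. This bound does not cover wild-type reads assigned to copies of Trav10n, so it is no minimum for the gene. DESeq2 gave an adjusted p of 0.0408, edgeR 0.9999 and the other alternatives up to 1, and DESeq2 with the block gave none for this gene. The 3 Trav10 copies summed to 2.65, 1.36 and 1.12 CPM in the knockouts, against 1.47, 0.755 and 0.816 CPM in the wild-types. At that level the groups overlapped and the log2 change was 0.76 (SE 0.51, adjusted p of 0.9999 in edgeR). Its copies Trav10 and Trav10d were detected in wild-type libraries at up to 71.8 and 36.2 counts.

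**Figure D3:**
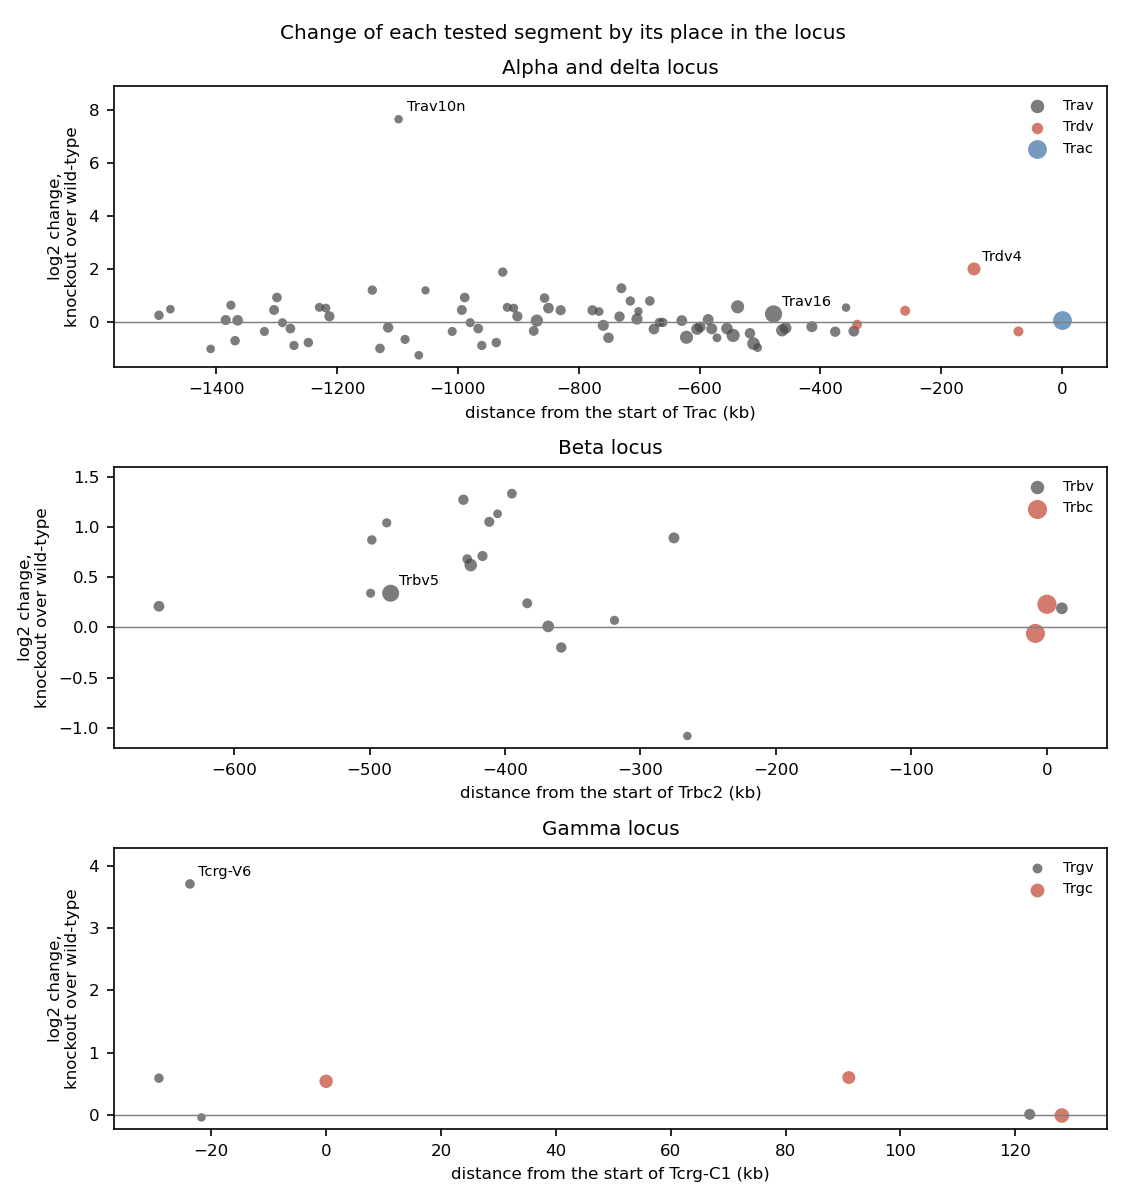
Log2 change of each tested member, knockout over wild-type in edgeR, against its distance in kb from the constant gene of its locus, with larger points for higher mean CPM. Most alpha members scatter on both sides of 0, and most beta members lie above it. Without knockout 1 alone 14 of 19 beta members lie below 0, and without both number 1 libraries 10 do. Trdv4 at 1.99 and Tcrg-V6 at 3.71 lie farthest above 0 in the delta and gamma loci. The value of Trav10n rests on wild-type counts of 0 and is no estimate of its size.

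In the gamma and delta loci the segments Tcrg-V6 and Trdv4 were higher in knockouts 2 and 3. Tcrg-V6 had 19.2, 140 and 96.2 counts in knockouts 1, 2 and 3, against 3.8, 9.6 and 3.9 counts in wild-types 1, 2 and 3. All knockout libraries lay above all wild-type libraries, knockout 1 by the least. In CPM the means were 1.73 ± 1.26 and 0.125 ± 0.0796 (SD, n = 3 each). In edgeR the log2 change was 3.71 (SE 0.90), at an unadjusted p of 0.0046, and the adjusted p was 0.9999. DESeq2 with the replicate block gave 3.51 (SE 0.77) with an adjusted p of 0.000702, within a range of 0.000702 to 1 over all alternatives.

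Trdv4, the delta segment known to pair with Tcrg-V6, was at 3.57, 17.2 and 17.9 CPM in knockouts 1, 2 and 3, against 2.88, 3.9 and 2.93 CPM in wild-types 1, 2 and 3. Knockouts 2 and 3 lay above every wild-type library, and knockout 1 lay within the wild-type range. In edgeR the log2 change was 1.99 (SE 0.58), at an unadjusted p of 0.0114, and the adjusted p was 0.9999. DESeq2 with the replicate block gave 1.70 (SE 0.42), with an adjusted p of 0.0051, within a range of 4.16e-10 to 1 over all alternatives. Every fit on all 6 libraries put both genes higher in the knockouts. Their log2 changes were 3.34 to 3.73 for Tcrg-V6 and 1.67 to 1.99 for Trdv4. Both genes were called in DESeq2 with the replicate block and in no other fit on all 6 libraries. In the same fit Tcrg-V6 was at a log2 change of 4.07 (adjusted p 0.00144) without the number 1 libraries, 3.36 (0.241) without number 2 and 2.98 (0.366) without number 3. Trdv4 was at 2.38 (adjusted p 4.16e-10) without number 1, 1.45 (0.267) without number 2 and 1.22 (0.493) without number 3. Both calls were thus lost without number 2 or number 3, with the direction kept.

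**Figure D4:**
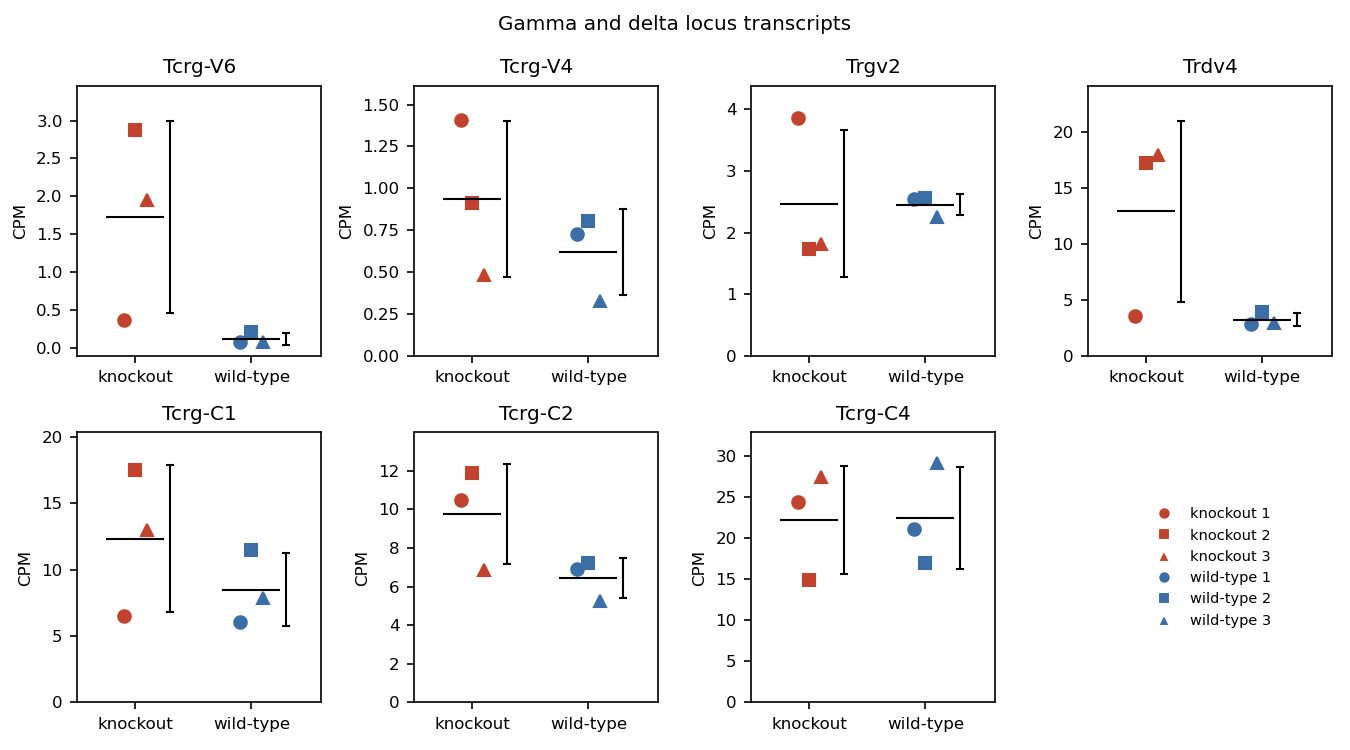
Levels of 3 gamma variable segments, of Trdv4 and of the 3 gamma constant genes in CPM, 1 point per library, with knockout left of wild-type, a line at each mean and a bar of 1 SD to each side. Tcrg-V6 and Trdv4 are high in knockouts 2 and 3, and the other genes overlap between genotypes.

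Their shares of the class showed the same libraries as high. Tcrg-V6 took 6.28%, 49.4% and 43.6% of the gamma variable counts in the knockouts, against 2.16%, 5.32% and 2.85% in the wild-types. Trdv4 took 44.5%, 84.6% and 86.5% of the delta variable counts in the knockouts, against 45.2%, 56.1% and 43% in the wild-types. Knockout 1 had a Trdv4 share inside the wild-type range.

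Tcrg-C1, the constant gene of the cluster that holds Tcrg-V6, was at 6.48, 17.5 and 13 CPM in the knockouts, against 6.09, 11.5 and 7.88 CPM in the wild-types. The groups overlapped, and number 2 was the highest in both genotypes. The log2 change was 0.54 (SE 0.41), with an adjusted p of 0.9999 in edgeR and of 0.369 to 1 over all alternatives. Tcrg-C2 was at 10.5, 11.9 and 6.87 CPM in the knockouts, against 6.89, 7.21 and 5.24 CPM in the wild-types, higher in the knockout library of every number and overlapping at knockout 3. Its log2 change was 0.60 (SE 0.28), at an unadjusted p of 0.0703, and the adjusted p was 0.9999 in edgeR. Tcrg-C4 was at 24.4, 14.9 and 27.5 CPM in the knockouts, against 21.1, 17 and 29.2 CPM in the wild-types, a log2 change of -0.01 (SE 0.29, adjusted p of 0.9999 in edgeR).

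The remaining gamma variable segments were low. Trgv2 was at 3.85, 1.74 and 1.82 CPM in the knockouts, against 2.54, 2.56 and 2.26 CPM in the wild-types. Tcrg-V4, a segment of many gamma-delta T cells of adult lymphoid tissue, was at 1.41, 0.915 and 0.482 CPM in the knockouts, against 0.728, 0.803 and 0.329 CPM in the wild-types. Tcrg-V5 was at 0.327, 0.226 and 0.226 CPM in the knockouts, against 0.287, 0.508 and 0 CPM in the wild-types, and Tcrg-V7 reached at most 0.157 CPM. These groups all overlapped. Among the delta segments, Trdv2-2, Trdv5 and Trdv1 had mean levels of 1.43, 1.05 and 0.923 CPM in the knockouts, against 1.08, 1.36 and 1.01 CPM in the wild-types.

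Of 8 gamma-delta T cell markers outside the receptor loci, all were tested, none was called in edgeR, and 5 log2 changes lay above and 3 below 0. None was at 0 in all libraries. Their summed level was 82.6, 133 and 74.1 CPM in the knockouts, against 76.7, 88.8 and 47.2 CPM in the wild-types. Cd163l1, a scavenger receptor of IL-17-making gamma-delta T cells in mouse, was at 12.9, 60.2 and 27 CPM in the knockouts, against 14.6, 31.1 and 8.48 CPM in the wild-types. It was highest in the number 2 library of both genotypes, with a log2 change of 0.88 (SE 0.65, adjusted p of 0.9999 in edgeR). Its relative 5830411N06Rik was at 8.7, 19.8 and 15.4 CPM in the knockouts, against 27.1, 30.9 and 11.8 CPM in the wild-types, a log2 change of -0.67 (SE 0.43, adjusted p of 0.9999 in edgeR). The other markers below 0 were the transcription factors Etv5, with means of 3.55 CPM in the knockouts and 3.82 CPM in the wild-types, and Zbtb16, with 0.872 and 0.919 CPM. DESeq2 with the block called 1 of the 8, Blk, a kinase that B cells also express, which rose by 1.11 on the log2 scale (adjusted p 2.26e-05, within 2.26e-05 to 1 over all alternatives). The part of gamma-delta T cells in the levels of Tcrg-V6 and Trdv4 was not tested.

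Segments of the invariant receptors of unconventional T cells were low. Trav11, the alpha segment of invariant NKT cells, had 27.8, 10.7 and 0 counts in the knockouts, against 8.2, 2.3 and 18.2 counts in the wild-types, and its copy Trav11d had 8.3, 6.3 and 34.3 counts in the knockouts, against 4.5, 2 and 7.2 counts in the wild-types. Together they reached at most 0.705 CPM. Trav1, the alpha segment of mucosal-associated invariant T cells, had 8.5, 4.3 and 4.2 counts in the knockouts, against 6.4, 14.9 and 0 counts in the wild-types. A count of 0 allows up to 0.0676 CPM in the shallowest library. The groups overlapped for each of these segments.

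Few genes that work with the receptor chains passed any test. Of the 7 genes of the CD3 complex and coreceptors none was called in edgeR, and DESeq2 with the block called Cd8a higher and none lower. Cd3g, a signalling chain of the complex, was at 1047, 866 and 716 CPM in the knockouts, against 1092, 802 and 544 CPM in the wild-types. The other chains Cd3d, Cd3e and Cd247 had means of 541, 201 and 216 CPM in the knockouts, against 524, 199 and 215 CPM in the wild-types. Like Trac and Trbc, Cd3g was highest in number 1 and lowest in number 3 of both genotypes. Cd4, the helper T cell coreceptor, was at 246, 634 and 380 CPM in the knockouts, against 523, 580 and 490 CPM in the wild-types, and knockout 1 was the lowest. Cd8a rose in that fit by 0.68 (SE 0.15) on the log2 scale, at an adjusted p of 0.000702, within 1.32e-05 to 1 over all alternatives. Its log2 change turned to -0.82 in edgeR without knockout 1, a fit that kept wild-type 1. Within a number, Cd8a was higher in the knockout each time, at log2 ratios of 0.73, 0.36 and 0.96 for numbers 1, 2 and 3.

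Of 12 genes of V(D)J recombination, which cut and join the segments, 9 were tested and none was called in edgeR. Rag2, of the recombinase, and Ptcra, of the precursor receptor of thymocytes, were at 0 in all libraries, and Rag1 reached at most 0.188 CPM. Dntt, the terminal transferase that adds bases at the joins, was at 2.08, 11.9 and 19.8 CPM in the knockouts, against 6.75, 28.8 and 46.5 CPM in the wild-types. It was lower in the knockout library of every number, and both number 1 libraries were the lowest of their genotype. It fell by 1.40 (SE 0.18) on the log2 scale in DESeq2 with the block, at an adjusted p of 8.14e-11, and did not pass in edgeR, at -1.28 (SE 0.89) with an adjusted p of 0.9999. The range over all alternatives was 8.14e-11 to 1.

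Of 13 genes of proximal receptor signalling all were tested, none was called in edgeR, and DESeq2 with the block called 0 higher and 2 lower. Cd5, a surface protein that dampens receptor signals, was at 194, 234 and 234 CPM in the knockouts, against 344, 311 and 312 CPM in the wild-types. All knockout libraries lay below all wild-type libraries. Its log2 change in that fit was -0.56, with an adjusted p of 0.00235, within 0.00235 to 1 over all alternatives. Cd6, a related protein, was at 307, 239 and 200 CPM in the knockouts, against 373, 302 and 272 CPM in the wild-types, and changed by -0.37 on the log2 scale in that fit (adjusted p 0.0194, within 0.0194 to 1). Lck and Zap70, the first kinases of the cascade, had adjusted p of 0.954 and 0.534 in it.

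The order of the segments, with Trbv5 and Trav16 set aside, was compared between libraries as a description. Spearman's rho over 46 alpha groups of copies was 0.88 to 0.95 between libraries of the same number and other genotype, and 0.79 to 0.90 between libraries of the same genotype. Over 21 beta segments it was 0.63 to 0.89 for the same number and 0.65 to 0.81 for the same genotype. The median alpha value was 0.92 for the same number and 0.885 for the same genotype, and the beta medians were 0.81 and 0.74. Libraries that shared neither number nor genotype gave 0.79 to 0.94 for alpha (median 0.87) and 0.59 to 0.87 for beta (median 0.775). The ranges of all these kinds of pairs overlapped. The points share the mapping of near copies and each segment's length, and no test was made.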

How the data were processed

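RNA was measured in 3 knockout and 3 wild-type libraries. The deposited table listed 93480 transcripts with their estimated count in every library, per the file headers, their length in nt and their deposited GC content as a fraction, which entered no test. Per the submitters' processing notes the tools were Bowtie2 2.1.0 and eXpress 1.3.1, and the build was GRCm38. How reads shared between segments were divided is not given in the sources used here. A count on a short segment rests on fewer reads than its value shows.

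Transcripts of the same gene were added up, giving 38483 genes, and the sums were rounded for the tests. Members were those with a total of at least 10. The members and gene lists were chosen with earlier results of these data known, and Trav groups of copies are names that differ only by the letter d or n. CPM are counts over library sizes scaled by TMM. A count of 0 allows up to 3 counts, or 0.0676 CPM at most. These floors cover counting error only. Levels per length were divided by the longest transcript of the gene.

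Knockout was tested against wild-type in edgeR 4.0.16 (quasi-likelihood, TMM scaling, no block) on 15121 genes, with filterByExpr defaults, Benjamini-Hochberg adjustment over all of them and a threshold of 0.05. Other fits used DESeq2 1.42.0 and limma 3.58.1 in R 4.3.3, and tables and figures used matplotlib 3.10.9, scipy 1.17.1, pandas 2.3.3 and numpy 2.4.6 in Python 3.11.15. Alternatives changed the scaling, the filter, the tool, the block, the libraries, the members and the summing of copies. Leaving out both number 1 libraries in edgeR, and shares divided by length, were added after seeing the data. The fits were tested on simulated counts. Sequences are GENCODE M21 transcripts on GRCm38, and 128 members matched that annotation by ID, all 128 at an overlapping position.

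Genes named were every constant and gamma variable member, the 5 highest of each other class, the 5 higher and 5 lower members of smallest unadjusted p, those past a planned test, the 5 with most signal in a single library, Il17a, the invariant segments, and, from the lists of receptor complex, recombination, signalling and gamma-delta genes, those past a test and examples. The labels do not say what a replicate number marks, or whether libraries came from separate animals, so p-values measure the spread between these samples. Across genes, each library's deviation from its genotype mean correlated at 0.483, 0.328 and 0.491 with that of the same-numbered library, and at -0.365 to -0.125 with the others. Every same-number value exceeded 0.1, so the numbers pair the libraries. The main test has no block all the same, and the fits with the block are alternatives to it.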

Additional observations from a re-analysis of the deposited data

How the results depend on the processing

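All 41 results were recomputed under their alternatives. The count of genes called was 0 in edgeR, 13 in DESeq2 and 381 in DESeq2 with the replicate block, and 0 to 264 with libraries left out, where the paired DESeq2 fit gave 176 without number 1, 264 without number 2 and 149 without number 3. Leaving out knockout 1 alone gave 1 in edgeR. Members called were 0 in edgeR, 1 in DESeq2 and 2 in DESeq2 with the replicate block, and 0 to 2 with libraries left out. Paired edgeR and paired limma-voom called 0 genes. In DESeq2 the block added Tcrg-V6 and Trdv4 and left Trav10n, called without it, with no adjusted p; it changed no other member's call. With libraries left out, the log2 change ran from -0.28 to 0.12 for Trbc1, from -0.22 to 0.21 for Tcrg-C4, from -0.08 to 0.26 for Trac and from -0.82 to 2.16 for Cd8a, so each changed sign, also in paired DESeq2 at 0.02 for Trbc1 without number 1 and at 0.04 for Tcrg-C4 without number 2, and the cause was not tested. None of the other genes among the 25 whose log2 change was recomputed changed sign. Of the 106 tested members, 68 changed sign under at least 1 alternative and 11 under one that kept all 6 libraries. Class sums, segment shares and effective numbers moved by less than the spread between replicates under every alternative, including without the 1 pseudogene and without the 11 members under 300 nt. Low counts limit most variable segments, and the division of reads among alpha copies is not known.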
